A study of Mus musculus with 15 samples.

Results

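The 34 mitosis and cytokinesis genes described here are 34 of the 16809 genes in a table of unique molecular identifier (UMI) counts from embryonic mouse hearts. They were taken by name: cyclins with their kinase, mitotic kinases, kinetochore and spindle proteins, and proteins that separate the daughter cells. All 34 are in the table. Whole hearts of E14.5 embryos on a C57BL6/N background were made into single-cell suspensions and processed by Drop-seq, a method that reads messenger RNA 3′ ends cell by cell in droplets with barcoded beads. The 7 wild-type (WT) libraries are Adamts19+/+ and the 8 knockout (KO) libraries Adamts19-/-, where Adamts19 encodes a secreted metalloprotease. The tm4a allele is that of KO replicate 1, from litter 5, and of KO replicates 2 to 4, from litter 6. The tm4b allele is that of KO replicates 5 to 8, all from litter 7. WT replicates 1 and 2 are of litter 1, 3 and 4 of litter 2, 5 of litter 3, and 6 and 7 of litter 4. One flow cell carried every KO library together with WT replicate 5, and the remaining 6 WT libraries were on other flow cells, so genotype nearly coincides with flow cell. The sources used here give neither the number of embryos per library nor the deleted part of Adamts19. The p-values therefore measure only the spread between these libraries.

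At entry into mitosis, cyclin B with Cdk1 drives chromosome condensation and spindle assembly, and aurora and polo-like kinases time the steps. The anaphase-promoting complex then marks the cyclins for destruction, and a central spindle and a contractile ring separate the daughter cells. Transcripts of these genes build up towards mitosis and are low in resting cells, and heart muscle cells still divide before birth.

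Many promoters of mitotic genes carry a cell cycle homology region (CHR) and CCAAT boxes. The promoters of the 7 genes that passed a test below and have an entry in RefSeq are shown, so that they can be compared in these letters. Kif23 passed for KO against WT. The others passed for tm4b against tm4a, not all in the same cells. Each runs 5′ to 3′ on the strand of its gene, from 170 bases before to 30 bases after the annotated start, build GRCm38.p6. Capitals mark the CCAAT box and the TTTGAA of the CHR, on this strand or as their reverse complement.
Kif23: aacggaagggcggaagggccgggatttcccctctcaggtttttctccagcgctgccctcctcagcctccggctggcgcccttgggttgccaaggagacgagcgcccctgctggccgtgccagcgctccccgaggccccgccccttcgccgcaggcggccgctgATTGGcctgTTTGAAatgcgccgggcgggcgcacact
Aurka: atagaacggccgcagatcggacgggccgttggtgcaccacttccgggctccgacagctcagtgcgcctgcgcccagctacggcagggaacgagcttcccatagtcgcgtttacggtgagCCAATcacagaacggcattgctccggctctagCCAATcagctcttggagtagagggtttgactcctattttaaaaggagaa
Nusap1: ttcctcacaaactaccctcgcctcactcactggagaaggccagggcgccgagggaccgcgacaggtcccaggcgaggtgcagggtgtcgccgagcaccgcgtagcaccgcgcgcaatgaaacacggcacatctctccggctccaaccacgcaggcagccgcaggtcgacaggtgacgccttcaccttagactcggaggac
Ccnb1: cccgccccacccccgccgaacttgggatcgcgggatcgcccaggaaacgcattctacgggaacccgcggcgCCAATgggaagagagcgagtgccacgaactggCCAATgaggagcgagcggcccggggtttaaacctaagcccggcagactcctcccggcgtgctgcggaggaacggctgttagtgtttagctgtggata
Cdca3: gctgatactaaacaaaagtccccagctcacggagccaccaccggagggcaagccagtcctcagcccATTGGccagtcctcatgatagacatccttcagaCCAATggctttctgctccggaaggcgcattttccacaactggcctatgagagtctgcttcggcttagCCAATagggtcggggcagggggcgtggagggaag
Ube2c: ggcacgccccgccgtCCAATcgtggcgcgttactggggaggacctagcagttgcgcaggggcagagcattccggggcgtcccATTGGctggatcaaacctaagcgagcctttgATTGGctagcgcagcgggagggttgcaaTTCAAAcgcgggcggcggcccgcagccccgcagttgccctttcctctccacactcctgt
Prc1: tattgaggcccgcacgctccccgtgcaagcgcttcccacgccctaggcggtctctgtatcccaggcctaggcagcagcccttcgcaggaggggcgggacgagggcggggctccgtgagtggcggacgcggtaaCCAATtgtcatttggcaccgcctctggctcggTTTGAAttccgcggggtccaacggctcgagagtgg
Kif23 is at chr9:61946770-61946969 on the minus strand, Aurka at chr2:172370541-172370740 on the minus strand and Nusap1 at chr2:119618128-119618327 on the plus strand. Ccnb1 is at chr13:100786457-100786656 on the minus strand and Cdca3 at chr6:124830006-124830205 on the plus strand. Ube2c is at chr2:164769759-164769958 on the plus strand and Prc1 at chr7:80294281-80294480 on the plus strand.

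RefSeq windows from 250 bases before to 50 after the start were matched by symbol for 29 of the 34 genes. Kif20a, Tpx2, Aurkb, Ccna2 and Incenp had no entry. TTTGAA on either strand, the letters of the CHR, was present in 22 of 29 (75.9%), against 18.1% of 27025 promoters of the same length. CCAAT on either strand was present in 23 of 29 (79.3%), against 37.9%. Both were present in 20 (69.0%), against 7.12%. TTGGCGG, letters like those of the cell cycle dependent element, was present in Cdk1 alone, 3.45% against 2.77%; it can overlap a CCAAT box read from the other strand. Of the promoters shown, Nusap1 holds none of these letters in its whole window and Ccnb1 holds CCAAT but no TTTGAA. In Aurka and Cdca3 a TTTGAA begins 33 and 31 bases after the start, past the part shown.

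The labels were checked against the targeted gene, whose 3′ tags check the deleted part only if it includes that end. Adamts19 lay between 15.75 and 49.9 counts per 1000000 UMIs (CPM) in the WT libraries and between 5.28 and 8.60 CPM in the KO libraries. A LacZ feature had 0 UMIs in every WT library and 5.40 to 91.6 CPM in the KO libraries. Total UMIs per library ran from 6215439 to 11340443 in WT and from 5477109 to 10105950 in KO. Median UMIs per kept cell were 1801 ± 323 in WT (SD, n = 7) and 1540 ± 179 in KO (SD, n = 8). Of 55152 barcodes, 186 had a sequence that also occurs in another library. The 50775 kept cells fell into 20 clusters, built without cell-cycle genes and called X-like by their markers.

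The 34 genes together made up 0.415% ± 0.0393 of all UMIs (SD, n = 15 libraries). The summed share ran from 0.350% to 0.481% in WT, with a mean of 0.3965% ± 0.0441 (SD, n = 7), and from 0.393% to 0.467% in KO, with a mean of 0.431% ± 0.0283 (SD, n = 8). The KO values lay inside the WT range. The tm4a mean was 0.433% ± 0.0345 and the tm4b mean 0.429% ± 0.0258 (SD, n = 4 each). No test was made on the sum.

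Among the cell classes compared, vascular endothelial-like cells, the lining of the coronary vessels, had the highest summed share, 0.592% ± 0.114 (SD, n = 15). They were the highest class in 12 of 15 libraries. Fibroblast-like cells were at 0.475% ± 0.0608, mural-like cells at 0.438% ± 0.120 (n = 14) and cardiomyocyte-like cells at 0.431% ± 0.0510. Valve interstitial-like cells were at 0.388% ± 0.0920, valve endothelial-like cells at 0.367% ± 0.146, macrophage-like cells at 0.337% ± 0.105 and endocardial-like cells at 0.311% ± 0.05305. Epicardial-like cells, the outer covering of the heart, were lowest at 0.257% ± 0.103 and were the lowest class in 9 of 15 libraries. Within libraries, vascular endothelial-like cells were above fibroblast-like cells in 13 of 15 and above endocardial-like cells in 15 of 15. Cardiomyocyte-like cells were above endocardial-like cells in 15 of 15. Neighbours in the middle did not separate: cardiomyocyte-like cells were above mural-like cells in 7 of 14 libraries, and fibroblast-like above mural-like cells in 9 of 14. Cardiomyocyte-like cells were 41.65% of kept cells and gave 50.9% of the member UMIs. A share of cells does not allow for the number of UMIs per cell, so classes are compared by the summed share.

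**Figure D1:**
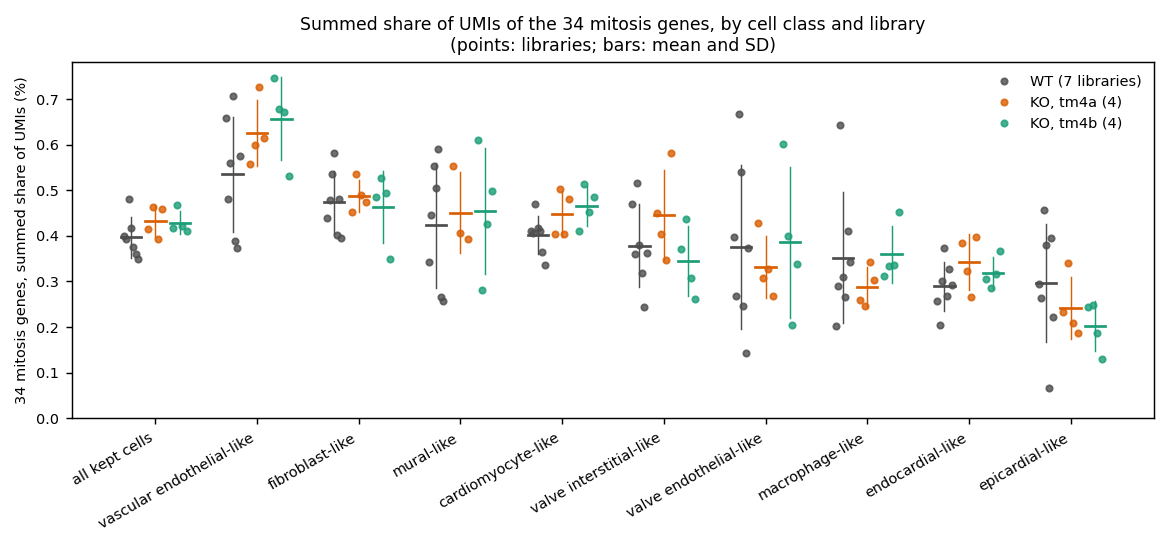
Summed share of UMIs (%, vertical axis) of the 34 mitosis genes for all kept cells and 9 cell classes; points are libraries coloured by group, with group means and SDs as bars. Vascular endothelial-like cells average 0.592% and epicardial-like cells 0.257%, and the WT and KO ranges overlap in every class.

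By genotype, the share in cardiomyocyte-like cells was 0.402% ± 0.0423 in WT (range 0.336% to 0.469%) and 0.457% ± 0.0455 in KO (range 0.404% to 0.515%). In vascular endothelial-like cells it was 0.535% ± 0.127 in WT and 0.641% ± 0.0776 in KO, and in epicardial-like cells 0.296% ± 0.130 and 0.222% ± 0.0611. The ranges overlapped in each. In valve interstitial-like cells the tm4a mean was 0.446% ± 0.0993 and the tm4b mean 0.3445% ± 0.0763 (SD, n = 4 each). That difference, -0.102 percentage points, was -0.006775 points when cell-cycle genes took part in the clustering.

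Cardiomyocyte-like clusters, of which 5 are described, differed from each other in member share. The largest, led by Mb, Kcne1 and Myh7, was at 0.489%. The cluster led by Gtsf1, Cited1 and Nppb was at 0.271%, below the largest in 15 of 15 libraries. The cluster led by Myl1, Nppa and Myl7 was at 0.371%, below the largest in 14 of 15. The cardiomyocyte-like cluster with the fewest UMIs per cell (median 599.5) was at 0.558%, below the largest in 2 of 15. A further cluster of 3184 cells was at 0.495%, below the largest in 8 of 15.

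Of the 34 genes, 24 had their highest mean level in vascular endothelial-like cells, 9 in cardiomyocyte-like cells (Ccna2, Ccnb1, Cdca3, Cenpa, Cenpf, Knstrn, Hmmr, Kif20a and Ect2) and 1, Anln, in mural-like cells. The lowest class was epicardial-like for 21 genes, macrophage-like for 7, endocardial-like for 5 and cardiomyocyte-like for 1, Aurkb. Levels are 3′ tags not divided by transcript length and are compared between classes and libraries, not between genes.

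**Figure D2:**
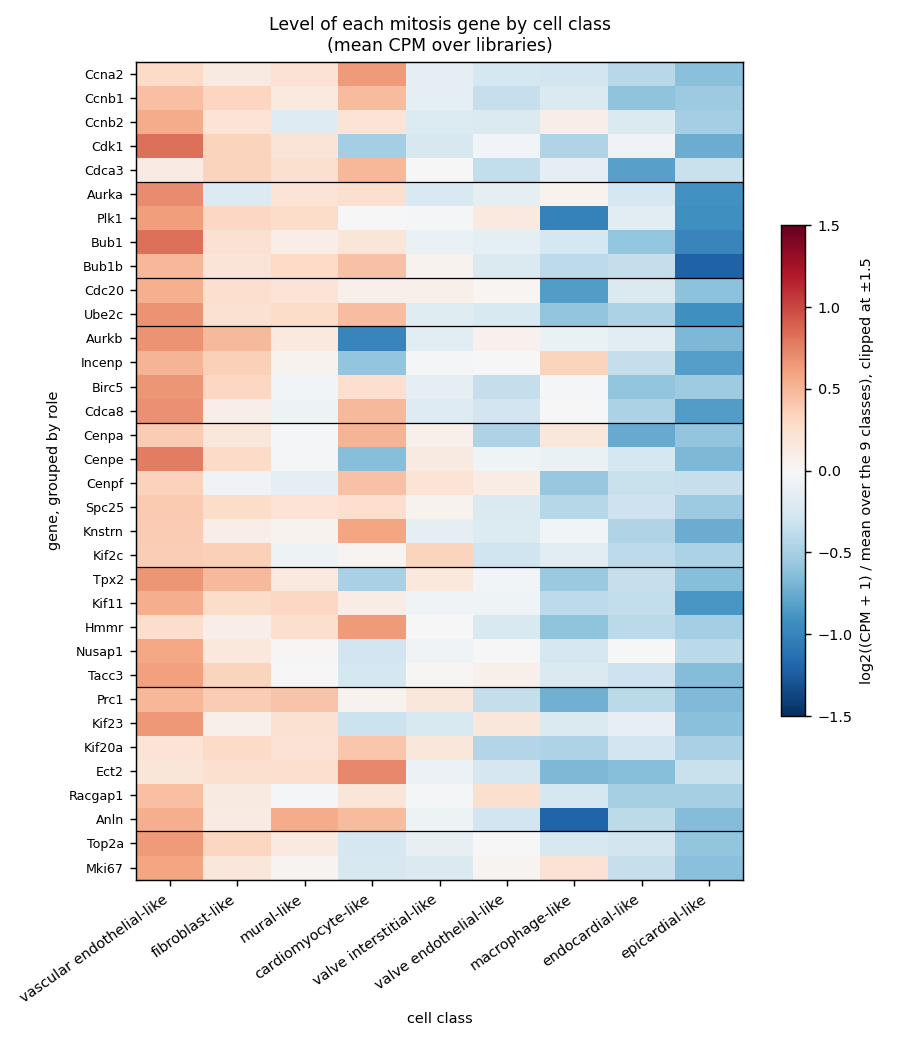
Level of each of the 34 genes (rows, by role) in 9 cell classes (columns), as log2 of CPM + 1 relative to the gene's mean over the classes. Vascular endothelial-like cells are highest for 24 genes and epicardial-like cells lowest for 21; in cardiomyocyte-like cells Aurkb is lowest while Cdca8 of the same complex is not.

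The chromosomal passenger complex corrects chromosome attachments and directs cytokinesis, and its genes did not order cardiomyocyte-like and fibroblast-like cells alike. Aurkb, its kinase, was at 22.6 ± 3.62 CPM in cardiomyocyte-like and 64.5 ± 12.9 CPM in fibroblast-like cells (SD, n = 15), lower in 15 of 15 libraries. Incenp, the scaffold that binds and activates Aurkb, was at 89.0 ± 29.6 CPM in cardiomyocyte-like and 172.5 ± 48.3 CPM in fibroblast-like cells, lower in 15 of 15. Cdca8 (borealin) was at 195 ± 23.4 CPM in cardiomyocyte-like and 149 ± 28.25 CPM in fibroblast-like cells, higher in 14 of 15. Birc5 (survivin) was at 241 ± 23.5 CPM in cardiomyocyte-like and 252 ± 45.0 CPM in fibroblast-like cells, lower in 10 of 15, a difference within the spread. The order depended on the class set beside them. Against vascular endothelial-like cells, cardiomyocyte-like cells were lower for Aurkb in 15, Incenp in 15, Birc5 in 14 and Cdca8 in 10 of 15 libraries. Against endocardial-like cells they were lower for Aurkb in 14 and Incenp in 9 of 15, and for Birc5 and Cdca8 in 0 of 15. These class differences are descriptions, with no test.

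Other genes lay on either side between cardiomyocyte-like and fibroblast-like cells. Cdk1, the kinase of the mitotic cyclins, was at 139.8 ± 22.7 CPM in cardiomyocyte-like and 251 ± 46.4 CPM in fibroblast-like cells. Cenpe, a kinetochore motor, was at 94.45 ± 27.4 CPM in cardiomyocyte-like and 181 ± 61.1 CPM in fibroblast-like cells. Tpx2, which activates Aurka on the spindle, was at 108 ± 23.4 CPM in cardiomyocyte-like and 213 ± 40.7 CPM in fibroblast-like cells. All 3, and the spindle protein Tacc3, were lower in cardiomyocyte-like cells in 15 of 15 libraries. Knstrn, a spindle and kinetochore adaptor, was at 129.9 ± 23.9 CPM in cardiomyocyte-like and 92.35 ± 17.75 CPM in fibroblast-like cells. Anln, the contractile-ring scaffold anillin, was at 105 ± 25.2 CPM in cardiomyocyte-like and 82.2 ± 22.1 CPM in fibroblast-like cells, and both were higher in cardiomyocyte-like cells in 15 of 15 libraries. Ect2, which activates RhoA for the contractile ring, Ccna2, a cyclin of S phase and early mitosis, and Hmmr, a spindle protein, were each higher there in 14 of 15. Ccnb2, another cyclin B (8 of 15 higher), Bub1 (7), Racgap1 (7) and Spc25 (6) did not separate the classes.

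By role, the centromere and kinetochore genes held 18.8% ± 1.08 of the member UMIs (SD, n = 15), the cytokinesis genes 14.55% ± 1.03 and the spindle genes 14.05% ± 0.862. The cyclins with Cdk1 held 13.9% ± 1.38, the passenger complex 12.8% ± 0.911, and the chromosome genes Top2a and Mki67 12.3% ± 2.41. The anaphase-promoting complex genes held 8.80% ± 1.14 and the mitotic kinases with the checkpoint genes 4.89% ± 0.3965. Top2a and Mki67 had the widest spread between libraries. The roles hold different numbers of genes, so their shares do not rank the roles.

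For the 6 genes with the highest mean CPM, levels in all kept cells overlapped between WT and KO. Top2a, which untangles sister chromatids, ran from 221 to 514 CPM in WT (median 307) and from 258 to 343 CPM in KO (median 321). Mki67, the chromosome surface protein behind the Ki-67 stain, ran from 106 to 293 CPM in WT (median 162) and from 141.5 to 209.6 CPM in KO (median 190.0). For both, the WT range spanned the KO range. Ube2c, the ubiquitin-conjugating enzyme of the anaphase-promoting complex, ran from 171 to 284 CPM in WT (median 256) and from 235 to 328 CPM in KO (median 254). Cenpa, the centromeric histone, ran from 154 to 278 CPM in WT (median 249.8) and from 186 to 283 CPM in KO (median 230.0). Birc5 ran from 180.3 to 246.5 CPM in WT (median 207) and from 189 to 252 CPM in KO (median 225). Prc1, which bundles the central spindle, ran from 157 to 243 CPM in WT (median 208) and from 208.5 to 249 CPM in KO (median 219.8).

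To compare detection at equal depth, each cell was thinned to 1000 UMIs. This kept 34013 cells and left out 16762 shallower ones, 6569 of them WT and 10193 KO. Of the thinned cells 43.5% held no member UMI, and 10.6% held 10 or more distinct members and gave 55.2% of all member UMIs. The most in 1 cell was 26 of 34. Of cells with a UMI of Kif2c, a kinesin that shortens microtubules, 97.3% held another member, against 55.5% of cells without one. For Cdk1 these were 85.8% and 50.6%. Before thinning, cells with at least 3 member UMIs had a median of 2969 UMIs and cells with none 2451.

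**Figure D3:**
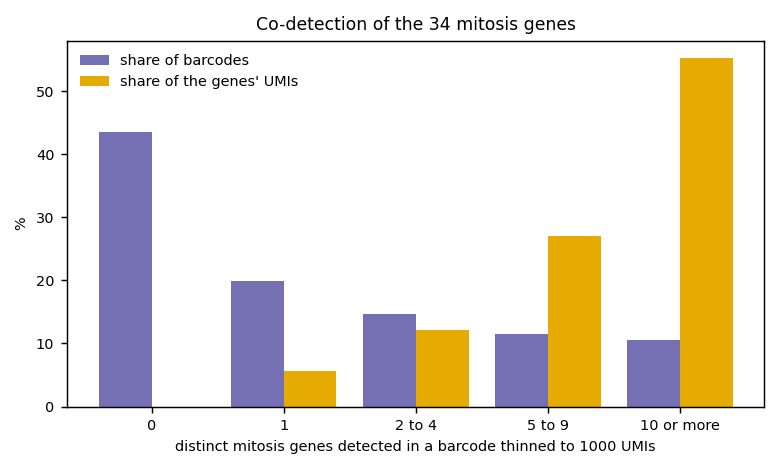
Share of thinned cells and share of the genes' UMIs (both in %, vertical axis) by the number of distinct mitosis genes detected in a cell (horizontal axis). Cells with 10 or more genes are 10.6% of cells and hold 55.2% of the UMIs.

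The share of thinned cells with at least 1 member UMI was 58.05% ± 7.76 in WT (SD, n = 7) and 55.0% ± 4.58 in KO (SD, n = 8). Unthinned, with the shallower cells included, it was 70.7% ± 10.1 and 64.6% ± 4.94. With at least 3 member UMIs, again in thinned cells, it was 30.2% ± 4.57 and 30.8% ± 3.03, so the order of the means turned, within the spread each time. WT replicates 3 (68.4%) and 4 (69.45%), both of litter 2, and KO replicate 4 (65.1%) stood above the other 12 libraries, which lay between 49.9% and 57.6%. Among the classes compared, the share was highest in vascular endothelial-like cells (75.6% ± 8.56) and lowest in epicardial-like cells (46.2% ± 12.5). Erythroid-like cells and a cluster left unnamed, led by the haemoglobin genes Hbb-y and Hba-x, were outside this comparison. Pooled over libraries, 77.7% of thinned cells held a member UMI in the unnamed cluster and 72.2% in the erythroid-like cluster. In the vascular endothelial-like cluster it was 74.7%. No class can be taken as lacking dividing cells, so the level that free RNA gives was not measured.

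In all kept cells, no mitosis gene passed the test of KO against WT. This was edgeR's quasi-likelihood test with a Benjamini-Hochberg adjusted p under 0.05, which 0.208% of 13445 genes passed. At an unadjusted p under 0.05 edgeR had 6 members, where 15.9% of all genes passed. DESeq2 called 4 (Bub1, Incenp and Kif23 higher, Ccna2 lower), where it called 3.18% of all genes. The log2 fold change was positive for 28 of 34 members, with a median of 0.11, and for 45.5% of all genes, with a median of -0.02. In sums over all cells, fewer cells of a type and less RNA per cell cannot be told apart. The unnamed cluster was 7.69% ± 7.325 of kept cells in WT (SD, n = 7) and 2.78% ± 1.60 in KO (SD, n = 8). Erythroid-like cells were 0.676% to 9.99% in 5 WT libraries and 0.331% to 0.587% in 4 KO libraries, with fewer than 10 cells in the rest. Their part in these values was not tested.

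Incenp, Kif23 and Bub1 had the largest values. Incenp ran from 68.7 to 144 CPM in WT (median 78.75) and from 112 to 158 CPM in KO (median 138). Its means were 88.7 ± 26.1 and 134 ± 17.0 CPM (log2 fold change 0.58, SE 0.13, edgeR adjusted p = 0.0580). Kif23, the kinesin of the centralspindlin complex that builds the midzone, ran from 66.3 to 128 CPM in WT (median 89.8) and from 86.2 to 154 CPM in KO (median 126) (log2 fold change 0.52, SE 0.13, edgeR adjusted p = 0.0643). Bub1, a spindle checkpoint kinase, ran from 52.3 to 88.4 CPM in WT (median 57.0) and from 65.8 to 106 CPM in KO (median 83.4) (log2 fold change 0.42, SE 0.12, edgeR adjusted p = 0.0938). WT and KO overlapped for all 3. All 3 passed when WT replicate 3 was left out, with edgeR adjusted p values of 0.00173, 0.0131 and 0.0144. That fit called 401 genes in all, against 28 with every library, so the calls rose well beyond these 3. Without WT replicates 3 and 4 and KO replicate 4, a choice made after seeing the data, 5 members passed (those 3, Anln and Ect2). Without WT replicates 1 to 4, 8 members passed. Of 98 further mitosis genes tested, edgeR called 0, where it called 0.208% of all genes. At an unadjusted p under 0.05 edgeR had 22 of them, where 15.9% of all genes passed. DESeq2 called 5 higher and 1 lower, where it called 3.18% of all genes.

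In cardiomyocyte-like cells, Incenp and Kif23 rose in KO. These were 2 of 34 members, where 0.793% of 11228 genes were called higher and 1.42% in either direction. Incenp was at 61.4, 68.5, 108, 52.95, 72.8, 53.4 and 47.6 CPM in WT replicates 1 to 7 and at 79.7, 101, 88.1, 134, 103, 139, 106 and 121 CPM in KO replicates 1 to 8. WT replicate 3 lay inside the KO range and the other 6 WT libraries below every KO library. Its means were 66.3 ± 20.3 and 109 ± 20.9 CPM (log2 fold change 0.70, SE 0.14, edgeR adjusted p = 0.0209), and the call held in 15 of 15 fits that left out 1 library. Kif23 was at 80.2, 81.9, 109.9, 56.2, 83.0, 59.2 and 54.4 CPM in WT replicates 1 to 7 and at 91.5, 113, 76.7, 145, 101, 152, 125.5 and 150.4 CPM in KO replicates 1 to 8. The groups overlapped, with 5 of 8 KO libraries above every WT library. Its means were 75.0 ± 19.95 and 119 ± 28.6 CPM (log2 fold change 0.66, SE 0.15, edgeR adjusted p = 0.0262). The Kif23 call was lost without WT replicate 5, 6 or 7 or KO replicate 6 or 8 (edgeR adjusted p up to 0.05915).

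Neither call held with flow cell or litter in the comparison. With flow cell as a covariate, where WT replicate 5 alone is WT on the shared flow cell, Incenp was at 0.58 (edgeR adjusted p = 0.696) and Kif23 at 0.52 (edgeR adjusted p = 0.734). With counts summed per litter, Incenp was at 0.59 (edgeR adjusted p = 0.359) and Kif23 at 0.56 (edgeR adjusted p = 0.331). The median depth of cardiomyocyte-like cells was 2159 ± 753 UMIs in WT and 1749 ± 235 in KO. In these cells the 11 erythroid markers in the table (of 12 listed) summed to 403 to 4880 CPM in WT and 395 to 1472 CPM in KO, and the 12 fibroblast markers to 404 to 697 and 325.5 to 484 CPM. Their part in the result was not tested.

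The partners of these genes did not pass in cardiomyocyte-like cells. In the passenger complex the log2 fold change was 0.14 for Aurkb (SE 0.14), 0.11 for Birc5 and 0.08 for Cdca8. Racgap1, the partner of Kif23 in centralspindlin, was at 0.11 (SE 0.09). Of the other cytokinesis genes, Ect2 was at 0.39 (edgeR adjusted p = 0.0840), Anln at 0.32, Prc1 at 0.21 and Kif20a, which carries the passenger complex to the midzone, at 0.18. Bub1 was at 0.48 (edgeR adjusted p = 0.0576). At an unadjusted p under 0.05 edgeR had 13 members, where 16.8% of all genes passed, and DESeq2 called 4 (Bub1, Ect2, Incenp and Kif23), where it called 3.66%. The value was positive for 30 of 34 members, with a median of 0.19 against -0.03 over all genes. Of 97 of those further mitosis genes, 1 passed, where 1.42% of all genes did. This was Ska3, a kinetochore protein, higher in KO (log2 fold change 0.68, SE 0.15, edgeR adjusted p = 0.0235).

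**Figure D4:**
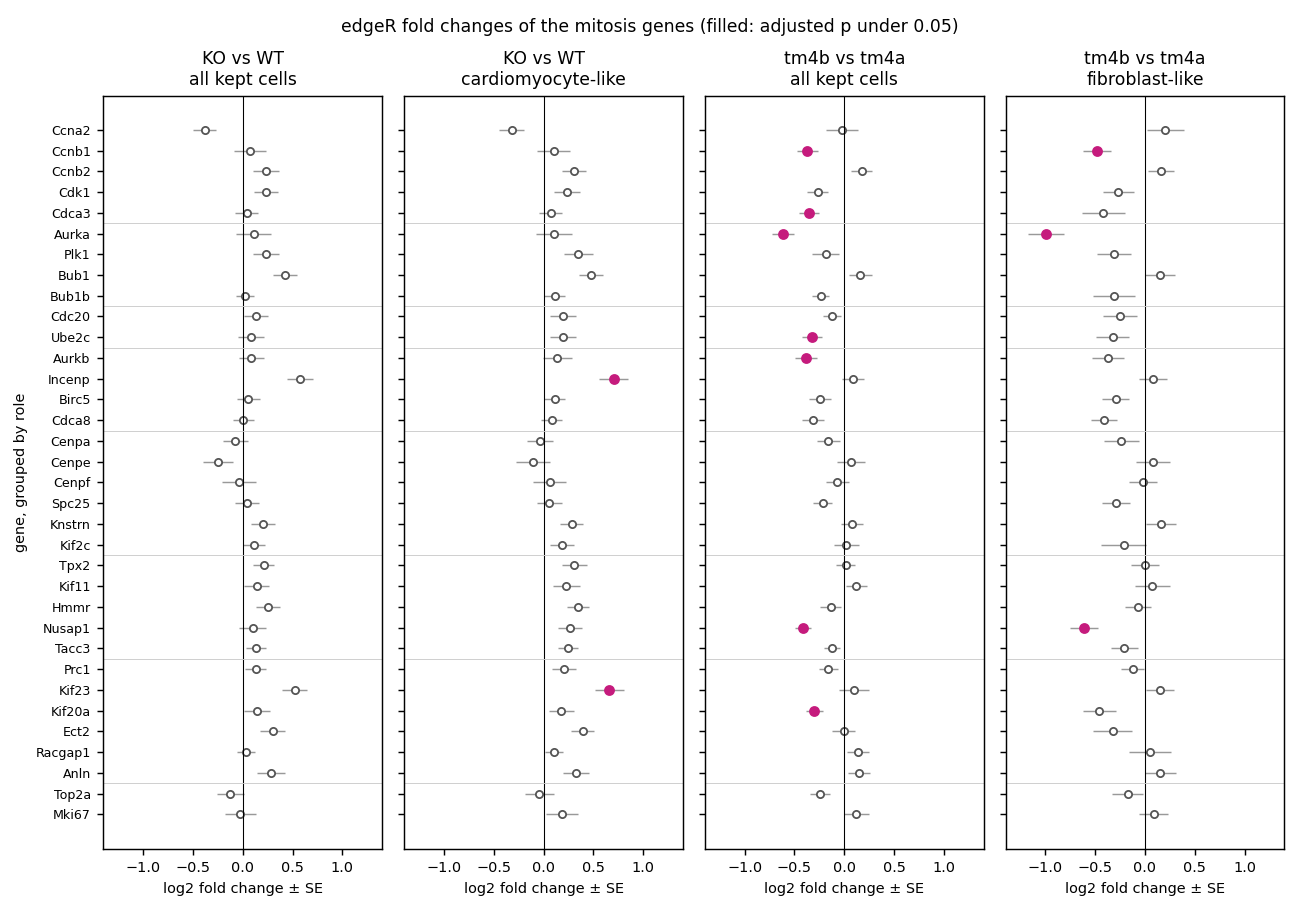
Log2 fold change (horizontal axis, bars are SEs) of the 34 genes by role in 4 comparisons; filled points passed an edgeR adjusted p under 0.05. These are Incenp and Kif23 for KO against WT in cardiomyocyte-like cells, 7 genes lower in tm4b in all kept cells and 3 lower in tm4b in fibroblast-like cells.

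In the other 8 classes edgeR called no member for KO against WT. The share of all genes called was 0.247% in valve interstitial-like, 0.2% in fibroblast-like, 0.203% in endocardial-like and 0.0% in vascular endothelial-like cells. It was 0.0225% in valve endothelial-like, 0.406% in epicardial-like, 0.0187% in mural-like and 0.0332% in macrophage-like cells. At an unadjusted p under 0.05 edgeR had 1, 4, 3, 7, 2, 11, 3 and 2 members in that order, where 13.4%, 14.4%, 13.2%, 9.56%, 10%, 11.5%, 9.67% and 9.16% of all genes passed. DESeq2 called 2 in fibroblast-like (Ccna2 and Incenp), 1 in vascular endothelial-like (Kif23) and 1 in epicardial-like cells (Cenpf), and 0 in the other 5. Of all genes it called 0.961%, 1.06%, 1.2%, 0.122%, 0.494%, 1.01%, 0.0746% and 0.498% in the same order. The members tested numbered 21 in macrophage-like, 27 in epicardial-like, 29 in valve endothelial-like and 33 or 34 in the other classes.

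Kif23 in vascular endothelial-like cells, singled out after its values were seen, did not overlap between the groups. It rested on 9 to 44 UMIs per WT library and 35 to 94 per KO library. It was at 147, 135, 163, 99.05, 165, 112 and 128 CPM in WT replicates 1 to 7 and at 257, 205, 169.8, 272, 289.5, 276, 251 and 238 CPM in KO replicates 1 to 8. It was the 1 member of 33 higher without overlap, as were 0.073% of all genes (log2 fold change 0.82, SE 0.16, edgeR adjusted p = 0.0911). Adding flow cell to the fit gave 0.54 (SE 0.34, edgeR adjusted p = 0.762). It passed without KO replicate 3 (edgeR adjusted p = 0.0255) and in no other fit that left out 1 library. Incenp had a positive log2 fold change in 9 of 9 classes (0.09 to 0.70) and Kif23 in 8 of 9. Whether the fold change differs between classes was not tested.

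In epicardial-like cells 26 of 27 members tested had a negative log2 fold change, all but Incenp. The median was -0.45, against -0.02 over all genes. Cenpf, a large kinetochore protein, ran from 17.8 to 278 CPM in WT and from 42.0 to 124 CPM in KO (log2 fold change -1.09, SE 0.27, edgeR adjusted p = 0.0649). Top2a ran from 17.8 to 445 and from 101 to 253 CPM (log2 fold change -0.78, SE 0.25, edgeR adjusted p = 0.203). Both were singled out after their values were seen. The groups overlapped, and WT replicate 5, with 28 epicardial-like cells, was the lowest library in summed share (0.0660%). Without it, Cenpf and Top2a passed (edgeR adjusted p = 0.02075 and 0.0394), and Cenpf also passed without WT replicate 2 or KO replicate 5. With flow cell as a covariate, where WT replicate 5 is the 1 WT library on the shared flow cell, the direction of both turned. Cenpf was then at 2.09 (SE 1.401, edgeR adjusted p = 0.534) and Top2a at 3.32 (SE 1.04, edgeR adjusted p = 0.261).

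Ccna2 and Cenpe, also singled out after their values were seen, lay below 0 in most classes. Ccna2 ran from 70.0 to 102 CPM in WT (median 77.0) and from 41.6 to 80.2 CPM in KO (median 66.5) in all kept cells (log2 fold change -0.38, SE 0.12, edgeR adjusted p = 0.122), and adding flow cell to the fit gave -0.24 (edgeR adjusted p = 0.837). In fibroblast-like cells Ccna2 was at 79.0 ± 14.9 CPM in WT and 48.3 ± 10.1 CPM in KO (log2 fold change -0.70, SE 0.15, edgeR adjusted p = 0.0624). Ccna2 passed there without WT replicate 3 (edgeR adjusted p = 0.0132), where 95 genes were called against 18 with every library. Its value was negative in 7 of 8 classes. Cenpe was negative in 9 of 9 classes and at -0.25 (SE 0.15) in all kept cells.

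Between the alleles, 7 mitosis genes fell in tm4b against tm4a in all kept cells and none rose. Of all 13531 genes, 7.39% were called lower and 7.92% higher with edgeR. Every tm4b library is of litter 7 and no tm4a library is, so allele and litter cannot be told apart. The 7 were Aurka, Nusap1, Cdca3, Aurkb, Ccnb1, Ube2c and Kif20a. Of all genes 15.3% were called in either direction. At an unadjusted p under 0.05 edgeR had 13 members, where 30.4% of all genes passed, and DESeq2 called 8 (those 7 and Cdca8), where it called 17.3%. The median log2 fold change of the 34 was -0.13, against 0.02 over all genes. In 6 members (Aurka, Bub1b, Cdca3, Kif20a, Nusap1 and Ube2c) every tm4b library lay below every tm4a library in CPM scaled by edgeR's normalization factors, as in 10% of all genes.

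Aurka, the kinase of the spindle poles, was at 50.15, 51.5, 43.9 and 49.9 CPM in KO replicates 1 to 4 (tm4a) and at 34.8, 39.5, 31.4 and 32.25 CPM in replicates 5 to 8 (tm4b). The groups did not overlap (log2 fold change -0.62, SE 0.11, edgeR adjusted p = 0.00650). Nusap1, which bundles spindle microtubules, was at 125, 141, 137 and 134 CPM in tm4a and at 108, 117, 108 and 102 CPM in tm4b. These groups did not overlap either (log2 fold change -0.41, SE 0.08, edgeR adjusted p = 0.00811). Both calls held in 8 of 8 fits that left out 1 library.

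The other 5 calls were lost in most such fits. Cdca3, a regulator of mitotic entry, was at 128 ± 13.8 CPM in tm4a and 108 ± 11.2 CPM in tm4b (log2 fold change -0.35, SE 0.10, edgeR adjusted p = 0.0340); it held only without KO replicate 3, 4 or 6. Aurkb was at 40.65 ± 5.29 and 33.7 ± 3.75 CPM (log2 fold change -0.38, SE 0.11, edgeR adjusted p = 0.0371) and held only without 4 or 6. Ccnb1, a cyclin B, was at 86.9 ± 8.61 and 73.0 ± 7.89 CPM (log2 fold change -0.37, SE 0.11, edgeR adjusted p = 0.0386) and held only without 3 or 6. Ube2c was at 283 ± 34.9 and 244 ± 9.71 CPM (log2 fold change -0.33, SE 0.10, edgeR adjusted p = 0.0435) and held only without 1 or 3. Kif20a was at 59.45 ± 3.88 and 52.4 ± 3.20 CPM (log2 fold change -0.30, SE 0.09, edgeR adjusted p = 0.0435) and held only without 3 or 4. With WT, tm4a and tm4b in 1 fit that shares the spread, none of the 7 passed (Aurka edgeR adjusted p = 0.153).

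The members that did not pass lay on both sides of 0. Cdca8 was at -0.31, Cdk1 at -0.27, Birc5 at -0.24, Top2a at -0.24, Bub1b (a checkpoint kinase) at -0.24 and Spc25, a subunit of the Ndc80 complex, at -0.22. Plk1, the polo-like kinase, was at -0.18 and Cdc20, which activates the anaphase-promoting complex, at -0.12. Ccnb2 was at 0.18, Bub1 at 0.16, Anln at 0.15, Racgap1 at 0.14 and Kif11, the motor that separates the spindle poles, at 0.12. Incenp was at 0.09 (SE 0.11) and Kif23 at 0.10 (SE 0.15). Of the further mitosis genes, 3 of 98 were called higher and 16 lower, where 7.92% of all genes were called higher and 7.39% lower. By p they were led by Tmpo, a protein of the nuclear envelope (0.53), Cks2, a subunit of Cdk1 complexes (-0.94), Cenpw (-0.46), Fam64a (-0.42) and Kifc1 (-0.50). Cardiomyocyte-like cells were 45.8% ± 4.77 of kept cells in tm4a and 40.2% ± 4.66 in tm4b (SD, n = 4 each), and their part in these values was not tested.

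**Figure D5:**
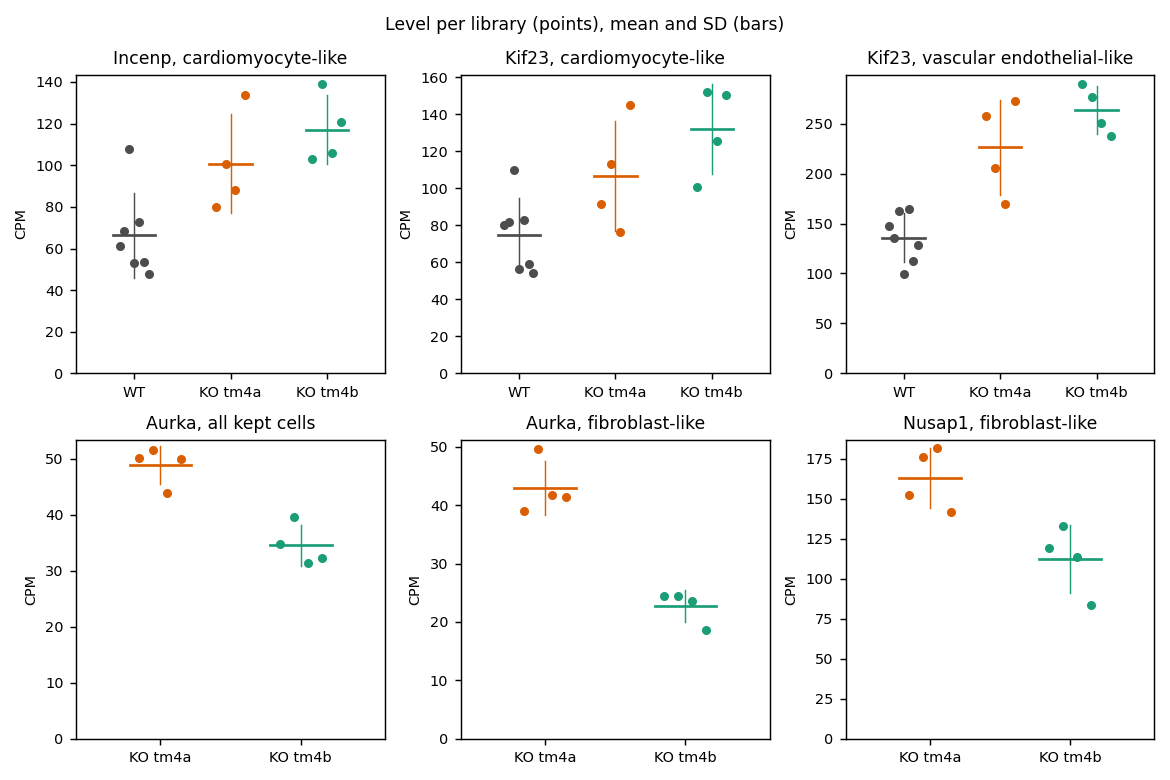
Level (CPM, vertical axis) per library (points) by group, with means and SDs as bars, for Incenp and Kif23 in cardiomyocyte-like cells, Kif23 in vascular endothelial-like cells, Aurka in all kept cells, and Aurka and Nusap1 in fibroblast-like cells. In the 3 panels of Aurka and Nusap1 every tm4b library lies below every tm4a library, and Kif23 in vascular endothelial-like cells does not overlap between WT and KO.

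In fibroblast-like cells Aurka, Nusap1 and Ccnb1 fell in tm4b, 3 of 34 members, where 5.1% of 9120 genes were called lower. Aurka was at 39.0, 49.6, 41.7 and 41.4 CPM in tm4a and at 24.4, 24.4, 23.7 and 18.7 CPM in tm4b, without overlap (log2 fold change -0.99, SE 0.18, edgeR adjusted p = 0.00458). Nusap1 was at 152, 176, 182 and 142 CPM in tm4a and at 119, 133, 113 and 83.3 CPM in tm4b, again without overlap (log2 fold change -0.62, SE 0.14, edgeR adjusted p = 0.0137). With WT, tm4a and tm4b in 1 fit none of the 3 passed (edgeR adjusted p = 0.188 for Aurka, 0.222 for Nusap1 and 0.400 for Ccnb1). The calls of Aurka and Nusap1 held in 8 of 8 fits without 1 library, and DESeq2 called both, where it called 7.93% of all genes. On the scaled CPM, 4 of 34 members (Aurka, Ccnb1, Kif20a and Nusap1) were lower without overlap, as were 8.33% of all genes. Of all genes edgeR called 9.86% in either direction and 26.0% at an unadjusted p, where 7 members passed. Ccnb1 was at 87.7 ± 15.6 and 66.8 ± 6.14 CPM (log2 fold change -0.48, SE 0.14, edgeR adjusted p = 0.0426) and was lost without KO replicate 2, 3, 5, 7 or 8. In these cells the 12 epicardial markers summed to 165 to 199 CPM in tm4a and 236 to 275 CPM in tm4b, and the 12 endocardial markers to 617 to 654 and 793 to 897 CPM; their part was not tested.

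In valve interstitial-like cells Aurka was the 1 member called, where 2.07% of genes were called lower. It was at 49.4, 52.0, 40.4 and 49.6 CPM in tm4a and at 30.3, 29.8, 25.7 and 17.2 CPM in tm4b, without overlap (log2 fold change -0.93, SE 0.24, edgeR adjusted p = 0.0329). The call held in 1 of 8 fits without a library, the one without KO replicate 6, and rests on 10 to 33 UMIs per library. With the 3 groups in 1 fit its edgeR adjusted p was 0.236. On the scaled CPM, 4 of 34 members (Aurka, Aurkb, Cdca3 and Nusap1) were lower without overlap, as were 6.3% of all genes. DESeq2 gave Aurka no adjusted p and called 4 other members (Ccnb1, Cdk1, Hmmr and Nusap1), where it called 3.97% of all genes. Of all genes edgeR called 4.24% in either direction and 22.1% at an unadjusted p, where 15 members passed. The value was positive for 1 of 34 members, Knstrn, and the median was -0.40 against -0.01 over all genes. When cell-cycle genes took part in the clustering, 10 members had enough counts in this class and none was called.

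In cardiomyocyte-like cells Aurka was at 52.7 ± 6.33 CPM in tm4a and 40.3 ± 8.305 CPM in tm4b (log2 fold change -0.50, SE 0.14, edgeR adjusted p = 0.0330), the 1 member called where 6.27% of genes were called lower. It held only without KO replicate 3 or 6. With the 3 groups in 1 fit its edgeR adjusted p was 0.346. DESeq2 called 2 members (Anln higher and Aurka lower in tm4b), where it called 12.2% of all genes. Of all genes edgeR called 12.6% in either direction and 27.7% at an unadjusted p, where 8 members passed. Anln was at 0.32 with edgeR (SE 0.11, adjusted p = 0.0558). In epicardial-like cells Prc1 was at 166 ± 51.4 and 90.1 ± 29.5 CPM (log2 fold change -0.997, SE 0.23, edgeR adjusted p = 0.0222) and Ube2c at 121 ± 62.6 and 65.1 ± 26.3 CPM (log2 fold change -1.09, SE 0.29, edgeR adjusted p = 0.0447). These were 2 of 29 members, where 1.89% of genes were called lower. Prc1 was lost without KO replicate 1, 2, 7 or 8 and Ube2c without 1, 2, 5, 7 or 8. With the 3 groups in 1 fit the edgeR adjusted p was 0.274 for Prc1 and 0.274 for Ube2c. DESeq2 called 1 (Prc1), where it called 2.23% of all genes. Of all genes edgeR called 3.19% in either direction and 18.7% at an unadjusted p, where 10 members passed. In the other 5 classes edgeR called no member. There 0.753% of all genes were called in endocardial-like, 1.41% in vascular endothelial-like, 0.38% in valve endothelial-like, 1.72% in mural-like and 0.0% in macrophage-like cells. At an unadjusted p under 0.05 there were 3, 4, 0, 3 and 5 members with edgeR, where 14.9%, 16.8%, 14.4%, 19% and 12.0% of all genes passed. DESeq2 called 0 members in each, and 1.15%, 1.95%, 0.845%, 1.75% and 0.0666% of all genes.

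Members lying wholly on one side in tm4b were also counted in the directions and classes not given above, on the scaled CPM. In all kept cells, valve interstitial-like and fibroblast-like cells no member was higher without overlap, where 10.7%, 6.6% and 7.73% of all genes were. In cardiomyocyte-like cells 1 member, Anln, was higher without overlap and none lower, where 9.17% of all genes were higher and 8.99% lower. Ccna2 was higher in vascular endothelial-like cells and none lower (5.03% and 4.93% of all genes), and Cenpa was higher in macrophage-like cells and none lower (3.29% and 3.76%). In epicardial-like cells Aurkb, Ect2 and Prc1 were lower and none higher (5.93% and 5.78%), and in mural-like cells Aurka and Cdca3 were lower and none higher (8.58% and 8.77%). No member was without overlap in endocardial-like cells (4.69% higher and 4.17% lower) or valve endothelial-like cells (4.18% and 4.64%).

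Outside the listed cell-cycle genes, the 5 genes most like the summed members were sought over 134 sums of a library and a class, among 7416 genes. By Pearson r of log2(CPM + 1) these were C330027C09Rik (0.73), Diap3, a formin (0.72), Ndc1, a nuclear pore protein (0.62), Prr11 (0.62) and Pa2g4 (0.61). The points share libraries and depth, so the values describe an order only.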

How the data were processed

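Drop-seq UMI counts of 15 whole-heart libraries (7 WT, 8 KO) were analysed. The authors' deposited table holds raw UMI counts per gene and barcode, in whole numbers. The submitters' processing notes name bcl2fastq 2.17, Seurat 2.1 and the mm10 build, with the counting method not given in the sources used here. Groups, litters and flow cells are those of the labels, per the labels' own wording. The members and lists were chosen with earlier results of these data known.

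Barcodes with 300 or more genes detected and no more than 30% mitochondrial UMIs were kept (50899). Scrublet marked 124 as doublets (0.244%), under 0.5% in 14 libraries, so the caller is taken not to have worked and doublets remain; the marked barcodes were left out. Clustering used 2000 variable genes without 305 cell-cycle genes, 30 principal components, 20 neighbours and Leiden resolution 1.0 (scanpy 1.11.5, leidenalg 0.10.2). A class needed 3 of its listed markers, and classes of fewer than 10 cells in a library were left out there.

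Counts were summed per library and class and tested with edgeR 4.0.16 (quasi-likelihood, TMM, filterByExpr; R 4.3.3), without covariates, each comparison fitted on its own groups over all genes with Benjamini-Hochberg adjustment. CPM are per 1000000 UMIs of the summed cells, and groups were called not overlapping over all genes on TMM-scaled CPM. Alternatives were DESeq2 1.42.0, no low-count filter, flow cell as covariate, counts summed per litter, a replicate block, all 3 groups in 1 fit, doublets kept, cell-cycle genes in the clustering, other thinning depths, libraries left out in turn, and WT replicates 1 to 4 left out. Leaving out WT replicates 3 and 4 and KO replicate 4 was chosen after seeing the data. On simulated counts, edgeR recovered 22.5% of 200 genes changed 1.5-fold and 87.0% changed 2-fold for KO against WT in all kept cells, and 39.5% and 80.5% for tm4b against tm4a.

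Members given in full passed a test, were among the 6 with the highest mean CPM, or had 1 of the 3 largest fold changes in a comparison over all cells. Genes outside the members are Adamts19 and LacZ, at most 5 further mitosis genes per comparison by p, and 5 genes by likeness (mean CPM at least 20). Others are said to be singled out. The result of 1 cardiomyocyte-like cluster is not reported here.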

Additional observations from a re-analysis of the deposited data

Results flagged for a closer look

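In groups of 4 to 10 libraries, a library was marked where its gap to the nearest other library was large for the range of its group by Dixon's 95% limit. This met 9 of 152 groups of values, and chance marks about 1 in 20 groups. WT replicate 3 stood above the other 6 WT libraries in 4 of them. Incenp was at 144.4 CPM there in all kept cells (the others lay between 68.7 and 93.1), at 107.7 in cardiomyocyte-like cells (47.6 to 72.8) and at 153.5 in endocardial-like cells (59.05 to 95.5). Bub1 was at 88.44 CPM in that library in all kept cells (52.3 to 67.7). WT replicate 1 had Cenpa at 153.7 CPM, below the other WT libraries (241 to 278). Among the tm4a libraries, KO replicate 2 had Cdca3 at 148.0 CPM (117.6 to 122.7). Among the tm4b libraries, KO replicate 6 had Incenp at 158.0 CPM in all kept cells (137.9 to 140.2) and Bub1 at 122.6 CPM in cardiomyocyte-like cells (93.7 to 98.1). KO replicate 8 had Aurka at 18.68 CPM in fibroblast-like cells (23.7 to 24.4).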

How the results depend on the processing

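Counts of mitosis genes called for KO against WT moved as follows. In all kept cells (0), DESeq2 gave 4, the 3 groups in 1 fit 1, leaving out WT replicates 1 to 4 gave 8, and leaving out WT replicates 3 and 4 and KO replicate 4 gave 5. In cardiomyocyte-like cells (2), DESeq2 gave 4, flow cell as covariate 0, counts per litter 0, the replicate block 0 and those 2 sets of libraries left out 9 and 4. In valve interstitial-like cells (0), leaving out WT replicates 1 to 4 gave 2. In fibroblast-like cells (0), DESeq2 gave 2, cell-cycle genes in the clustering 1, the 3 groups in 1 fit 1 and the libraries left out 3 and 2. In endocardial-like cells (0), they gave 1 and 1. In vascular endothelial-like cells (0), no filter gave 1, DESeq2 1 and leaving out WT replicates 1 to 4 gave 2. In epicardial-like cells (0), no filter gave 3 and DESeq2 1. For tm4b against tm4a, the 3 groups in 1 fit gave 0 in all kept cells (7), cardiomyocyte-like (1), valve interstitial-like (1), fibroblast-like (3) and epicardial-like cells (2). No filter gave 4 in all kept cells, 8 in valve interstitial-like, 4 in epicardial-like and 1 in mural-like cells (0). DESeq2 gave 2 in cardiomyocyte-like, 4 in valve interstitial-like and 1 in epicardial-like cells. In valve interstitial-like cells doublets kept gave 0 and cell-cycle genes in the clustering 0, and in mural-like cells doublets kept gave 1. Leaving out 1 library at a time gave, for KO against WT, 0 to 3 in all kept cells, 1 to 4 in cardiomyocyte-like, 0 to 2 in fibroblast-like and epicardial-like, 0 to 1 in endocardial-like and vascular endothelial-like cells and 0 elsewhere. For tm4b against tm4a it gave 2 to 6 in all kept cells, 0 to 5 in cardiomyocyte-like, 0 to 8 in valve interstitial-like, 2 to 5 in fibroblast-like, 0 to 2 in epicardial-like, 0 to 1 in mural-like cells and 0 elsewhere. Calls over all genes moved in these fits too. For KO against WT they ran from 5 to 401 in all kept cells and from 69 to 498 in cardiomyocyte-like cells. For tm4b against tm4a they ran from 746 to 2191 in all kept cells and from 62 to 429 in valve interstitial-like cells. Totals over all genes for the other alternatives, apart from DESeq2 above, are not given here. Mural-like cells of KO replicate 4 were too few to enter. Except where fewer libraries or another set of genes entered the fit, the cause was not tested.

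The summed share in valve interstitial-like cells, tm4b minus tm4a, was -0.102 percentage points, and -0.00678 with cell-cycle genes in the clustering. The share of cells with a member UMI, tm4b minus tm4a, was -5.26 points in fibroblast-like cells and 2.11 without thinning. In epicardial-like cells it was -7.88, and 0.838 when thinned to 500 UMIs and 0.1955 without thinning. In mural-like cells it was -2.77, and 2.115 without thinning. The values without thinning or at 500 UMIs also take in shallower cells.

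Same-numbered WT and KO libraries did not deviate together (r from -0.31 to 0.13 over 7 pairs, 0 of them best with their own number), so the numbers do not pair the libraries. With the replicate block, Incenp was at 0.71 (edgeR adjusted p = 0.134) and Kif23 at 0.62 (edgeR adjusted p = 0.231) in cardiomyocyte-like cells.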
